A study of Mus musculus with 18 samples.

Results

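Antibody variable (V) gene usage was read from the long-read counts of bone marrow cells of young and aged mice. The genes were selected on their name and on their reads. A gene was taken when its symbol in the deposited annotation began with Igkv, Ighv or Iglv and it had 1 or more long reads over all 12 libraries. Of 348 V genes in the annotation, 136 were found in this way, among 17221 genes with a long read and 55478 genes in the table. The kappa light chain locus gave 64 of its 160 V genes, the heavy chain locus 71 of 185 and the lambda light chain locus 1 of 3. Because reads chose the members, their having reads is no finding, and their totals below are descriptions without a test.

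The cells were the lineage-negative, cKit-positive (LK) fraction of bone marrow, which holds stem and progenitor cells, from 3 female C57BL/6 mice (C57BL/6J in the study's methods) of 8 weeks (young, mice 1, 3 and 5) and 3 of 72 weeks (aged, mice 2, 4 and 6), untreated as far as the labels say. Droplet cDNA of each mouse was read at full length on Pacific Biosciences Sequel and Sequel II instruments, in 2 runs per mouse (each called a library here), whose names do not give the instrument. Names of 6 libraries carry a second-run mark and the other 6 do not, and these are called second and first runs here. A first run held 274522 to 358453 reads on genes and a second run 962174 to 1833762. A pair of first runs is named only young or aged, without a mouse number, and belongs to mice 1 and 2 only by elimination. The 3 libraries per age are separate mice. The counts are per gene and library and cannot be assigned to cells.

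The sorted fraction was checked against its markers. Summed LK progenitor markers (Kit, Cd34, Mpo, Gata2, Myb and Lmo2) stood at 10004 to 21454 CPM (reads on the gene scaled to a library total of 1e6 reads on genes) in the 12 libraries. Pax5, which defines B cells, had 0 reads in all of them, and the 10 B cell markers summed to 45.0 to 183 CPM. The 10 plasma cell markers summed to 323 to 4508 CPM. Their sum was highest in the 2 libraries with the most V reads, the unnumbered aged first run and the second run named aged mouse 2. Most of the sum there was Jchain (3742 and 2720 CPM), followed by Xbp1 (510 and 473 CPM). The other plasma cell markers stood at 0 to 83.3 CPM in these libraries. The 7 macrophage and dendritic cell markers were also highest in these libraries, at 1679 and 1431 CPM. Most of this was Cd74 (1409 and 1236 CPM) and H2-Aa (253 and 184 CPM), and the other markers of the list stood there at 0 to 10.0 CPM. The list summed to 606 and 488 CPM in the unnumbered young first run and the second run named young mouse 1, and to 7.28 to 152 CPM in the other 8. The part of either marker list in the V gene levels was not tested. In bulk counts, fewer cells of a type and less RNA per cell cannot be told apart.

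V usage did not follow the mouse names in every library. Second runs named young mouse 3, young mouse 5 and aged mouse 6 were closest in V usage to a first run of the other age, as described below. Such a crossing does not show which of the runs carries the right name. Libraries were kept under their deposited names and none was moved. First and second runs were not mixed, and the comparison between ages used the first runs as named. Whether their names are the right ones was not tested.

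V genes are the segments from which the antigen-binding ends of antibodies are built. During B-cell development, 1 V segment of a chromosome is joined to a J segment (in the heavy chain also to a D segment), so a cell and its descendants share their V segments, and the transcript runs from the V exon through J into the constant region. A mixed population of B-lineage cells uses many V genes, and an expanded clone or a few plasma cells can give most of the reads to a handful.

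The sequences of the genes that carried the findings are shown first, from the GENCODE M21 transcripts on GRCm38, where all 136 members had an entry. Each line gives the last 120 bases of the germline V transcript, with the codon of the conserved cysteine near the end of the V segment in capitals. It was found as the last TGT or TGC that follows a TAT or TAC codon and 1 further codon. The bases after it begin the third complementarity-determining region, and the recombined J segment follows.
Igkv12-44: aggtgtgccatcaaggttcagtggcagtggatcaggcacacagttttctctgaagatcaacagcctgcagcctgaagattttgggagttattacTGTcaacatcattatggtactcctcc
Igkv12-46: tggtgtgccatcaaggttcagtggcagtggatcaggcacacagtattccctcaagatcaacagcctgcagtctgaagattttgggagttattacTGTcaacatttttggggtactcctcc
Igkv2-137: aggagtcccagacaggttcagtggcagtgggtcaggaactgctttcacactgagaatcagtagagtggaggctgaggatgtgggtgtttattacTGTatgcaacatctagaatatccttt
Igkv1-117: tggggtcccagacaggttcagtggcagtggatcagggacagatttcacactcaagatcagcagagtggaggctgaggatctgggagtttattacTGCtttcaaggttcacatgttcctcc
Igkv5-43: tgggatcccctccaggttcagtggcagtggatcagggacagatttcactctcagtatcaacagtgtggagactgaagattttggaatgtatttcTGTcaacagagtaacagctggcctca
Igkv5-45: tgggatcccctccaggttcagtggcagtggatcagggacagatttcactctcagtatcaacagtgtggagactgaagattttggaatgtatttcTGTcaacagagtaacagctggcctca
Ighv11-2: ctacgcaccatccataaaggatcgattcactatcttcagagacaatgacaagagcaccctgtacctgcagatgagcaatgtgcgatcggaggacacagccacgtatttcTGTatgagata
Ighv1-55: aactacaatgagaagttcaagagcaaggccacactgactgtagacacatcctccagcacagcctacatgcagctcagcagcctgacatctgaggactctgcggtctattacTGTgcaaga
Ighv1-47: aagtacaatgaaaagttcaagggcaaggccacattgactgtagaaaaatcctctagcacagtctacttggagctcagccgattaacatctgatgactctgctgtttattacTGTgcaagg
Iglv1: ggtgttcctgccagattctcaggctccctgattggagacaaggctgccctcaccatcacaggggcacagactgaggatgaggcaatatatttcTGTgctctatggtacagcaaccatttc

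Igkv12-44 and Igkv12-46 are shown as a pair because they lie in the same family, were 89.5% identical over the whole transcript and differed at 9 of these 120 bases. Igkv5-43 and Igkv5-45 are shown because their last 120 bases did not differ (0 differences) and their transcripts were 96.9% identical, although the libraries used them very differently. Igkv1-117 was 96.8% identical to Igkv1-110, which had 152 reads against 1864. Reads of such pairs could be split between near-identical copies by the alignment, so their separate counts are uncertain. Igkv2-137 had no family member above 67.3% identity.

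Pooled V reads were dominated by a few genes. The 136 members held 18865 reads, and Igkv12-44 alone held 4951 (26.2%). Igkv2-137 followed with 2855 reads and Igkv1-117 with 1864, so that the 3 leading genes held 51.3% of all V reads and the 10 leading genes 77.4%. At the other end, 27 members had a single read, the median member had 9 reads, and 68 members had 10 or more. These pooled values follow the second run named aged mouse 2, which held 11573 of the 18865 V reads (61.3%). Without it Igkv2-137 had 1439 reads and Igkv12-44 had 1409, so the leading gene changed. Igkv12-44 led 2 of the 12 libraries. When the 6 first runs were weighted equally, Igkv5-43 led with a mean share of 15.4% ± 30.7 (SD, n = 6), followed by Ighv1-55 with 13.6% ± 30.8, Igkv12-44 with 10.9% ± 15.7 and Igkv2-137 with 10.2% ± 14.8. The spread between libraries exceeded the differences between these genes. A long read counts once whatever the length of its molecule, so these shares are shares of reads and were not divided by length.

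Igkv12-44 lies on chromosome 6 at 69814631 to 69815154 (GRCm38, minus strand), opposite in direction to the constant gene Igkc. In first runs it had 76 reads in the unnumbered young library, 0 in young mouse 3, 0 in young mouse 5, 857 in the unnumbered aged library, 15 in aged mouse 4 and 0 in aged mouse 6. In second runs it had 369, 1, 90, 3542, 1 and 0 reads under the names of young mice 1, 3 and 5 and aged mice 2, 4 and 6. Both ages thus held libraries with none or hardly any of it, and the ages overlapped.

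Igkv2-137 (chromosome 6, 67555497 to 67556216, plus strand) led aged mouse 4 and came next after Igkv12-44 in the unnumbered aged library. Its first-run reads were 1, 0 and 1 in the young libraries (unnumbered, mouse 3, mouse 5) and 388, 177 and 0 in the aged (unnumbered, mouse 4, mouse 6). Its second-run reads were 3, 7 and 851 in young and 1416, 11 and 0 in aged, in order of mouse number. The large value under young mouse 5 in the second runs had no counterpart in that mouse's first run, which held 1 read. An exon of the annotated gene Gm42889 overlaps Igkv2-137 on the same strand, so the count is uncertain for that overlap as well.

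Ighv1-55 (chromosome 12, 115208095 to 115208591, minus strand) led libraries with few V reads. It took 52 of the 68 V reads of the first run of aged mouse 6 (76.5%, 95% exact binomial interval 64.6 to 85.9%) and 172 of the 204 V reads of the second run named young mouse 3 (84.3%, 78.6 to 89.0%). The first run of young mouse 3 had 0 reads of it, and the second run named aged mouse 6 also had 0. Its level was nevertheless highest in the libraries with most V reads, at 203 CPM in the unnumbered aged first run and 213 CPM in the second run named aged mouse 2, against 145 and 143 CPM in the libraries it led.

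Igkv5-43 (chromosome 6, 69823355 to 69823943, minus strand) led the other libraries of these names. It took 21 of the 27 V reads of the first run of young mouse 3 (77.8%, 57.7 to 91.4%) and 100 of the 125 of the second run named aged mouse 6 (80.0%, 71.9 to 86.6%), against 2 of 204 and 0 of 68 in the partners of the same name. Its level too was higher in the unnumbered aged first run (303 CPM) than in the first run of young mouse 3 (62.2 CPM). Intervals here cover counting error only, since amplified reads are not independent molecules.

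Igkv5-45 (chromosome 6, 69775750 to 69776344, minus strand), its near copy, led in the unnumbered young first run with 88 of 263 V reads (33.5%, 27.8 to 39.5%) and in the second run named young mouse 1 with 403 of 1401 (28.8%, 26.4 to 31.2%). It had 2 reads in the unnumbered aged first run and 0 in the other 4 first runs.

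Ighv1-47 (chromosome 12, 114991108 to 114991580, minus strand) was the most restricted of the leading heavy chain genes. All of its 54 first-run reads came from aged mouse 4, and 220 of its 222 second-run reads from the library named young mouse 5.

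Of the other kappa genes among the 10 with the most reads, Igkv1-135 and Igkv12-46 took most of their reads from the unnumbered aged first run and of the second run named aged mouse 2. Igkv1-135 had 171 and 667 reads in these libraries, of 859 in all, and it led the second run named aged mouse 4 with 13 of its 38 V reads (34.2%, 19.6 to 51.4%). Igkv12-46 had 111 and 588 reads in them, of 724 in all. Igkv4-55 was spread differently, with 46 and 181 reads there, 47 in the first run of aged mouse 4 and 192 in the second run named young mouse 5, of 494 in all.

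Ighv11-2 (chromosome 12, 114048241 to 114048812, minus strand), the heavy chain gene known from phosphatidylcholine-binding B-1a cells, had 848 reads, the most of its locus, of which 668 came from the second run named aged mouse 2. Without that library Ighv1-55 had 327, Ighv1-47 had 276 and Ighv11-2 had 180, and in first runs Ighv1-55 (122) was also ahead of Ighv11-2 (95). Ighv11-2 had 85 reads in the unnumbered aged first run and 0 to 6 in the other 5 first runs, and outside the library named aged mouse 2 the second runs had 0 to 62. Igkv14-126, a light chain gene with which it is known to pair, had 47 reads in the unnumbered aged first run and 0 to 4 in the other first runs, and 107 in the second run named aged mouse 2 and 0 to 18 in the other second runs. Both genes thus had their most reads in the libraries with the most V reads of each run.

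**Figure D1:**
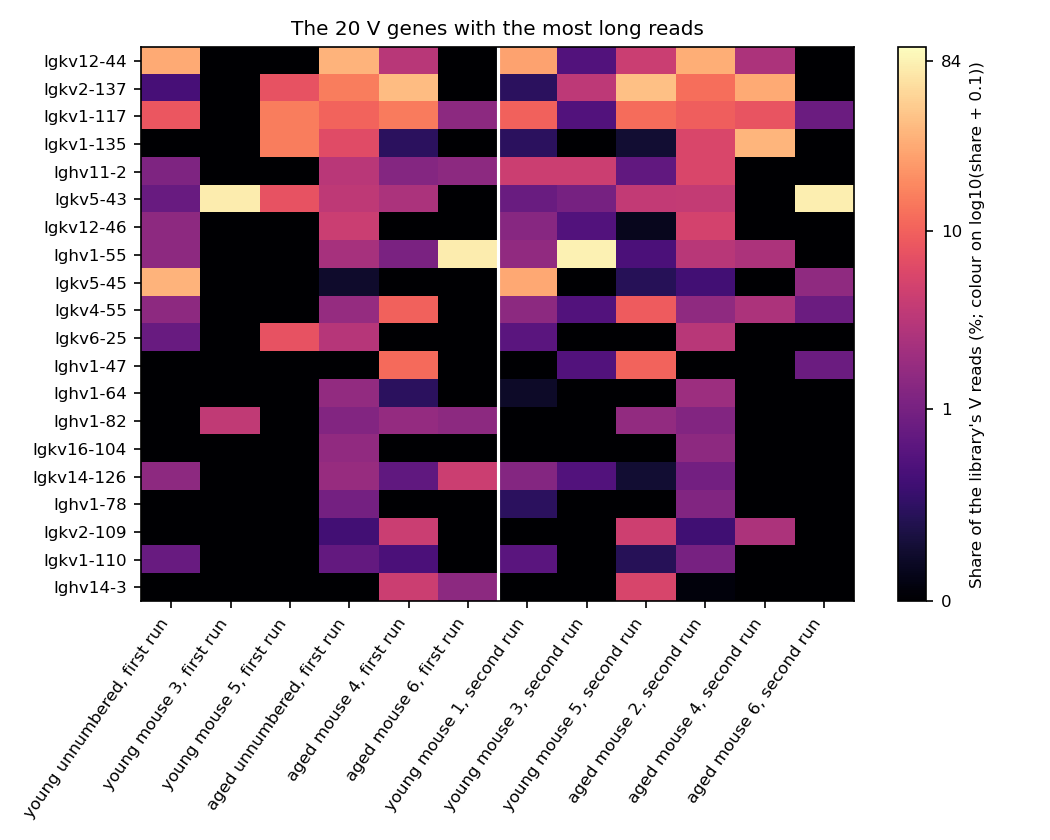
Share of each library's V reads (%, colour on a log10 scale of share + 0.1) taken by the 20 V genes with the most long reads, in rows, in the 6 first runs (left of the white line) and 6 second runs (right). Ighv1-55 is bright in aged mouse 6, first run (76.5%) and young mouse 3, second run (84.3%), and Igkv5-43 in young mouse 3, first run (77.8%) and aged mouse 6, second run (80.0%).

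Families followed their leading genes in the pooled reads. The Igkv12 family held 5707 reads (30.3%) over 5 members, Igkv2 3023 (16.0%) over 3, Igkv1 2972 (15.8%) over 8 and Ighv1 2475 (13.1%) over 42. Of the Igkv12 reads, 4151 came from the second run named aged mouse 2. Without that library Igkv12 had 1556 reads and Igkv2 1568, so their order turned. With the 6 first runs weighted equally, Ighv1 led with a mean share of 22.2% ± 29.5 (SD, n = 6). Igkv5 followed with 21.2% ± 30.5 and Igkv12 with 13.1% ± 16.6, so the spread exceeded the differences. In first runs Igkv12 had 80, 0 and 0 reads in young (unnumbered, mouse 3, mouse 5) and 973, 15 and 5 in aged (unnumbered, mouse 4, mouse 6). In the pooled reads Ighv1, the largest heavy chain family, spread a smaller share over many more genes. In the kappa locus, 23 of 75 V genes on the strand of Igkc and 41 of 85 on the opposite strand had reads. The opposite strand, from which V segments join by inversion, held 8079 kappa reads (53.3%) and the same strand 7065 (46.7%).

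Few members were found in many libraries. None of the 136 was found in all 12 libraries or in all 6 first runs, and Igkv1-117, the most widespread, was found in 11 libraries. A single library held all reads of 46 members, and 27 members had only 1 read and so could be in no other. Depth bounds these counts, since the first runs of young mouse 3 and young mouse 5 held 27 and 13 V reads on 5 and 7 genes. Of 86 members with a first-run read, 49 had it in 1 first run only, 21 in 2, 9 in 3, 5 in 4 and 2 in 5. Among the 29 members with 10 or more first-run reads, the leading library held a median of 89.5% of those reads. That library was the unnumbered aged one for 22 of them. Without it, 15 members had 10 or more reads in the other 5 first runs, and the leading library of the 5 held a median of 92.2%.

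Total V reads differed between libraries by over 2 orders of magnitude in level. First runs held 942 CPM (unnumbered), 80.0 CPM (mouse 3) and 40.1 CPM (mouse 5) in young and 8599 CPM (unnumbered), 1705 CPM (mouse 4) and 189.7 CPM (mouse 6) in aged. The mean was 354 ± 509.8 CPM (SD, n = 3) in young and 3498 ± 4482 CPM (SD, n = 3) in aged, and the ages overlapped, since aged mouse 6 lay below the unnumbered young library. Without the unnumbered aged library the aged mean was 947 CPM, and without the unnumbered young library the young mean was 60.1 CPM. Second runs held 764, 169.9 and 1703 CPM under young mice 1, 3 and 5 and 6711, 39.5 and 101 CPM under aged mice 2, 4 and 6. A sum over members chosen on these reads received no test.

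**Figure D2:**
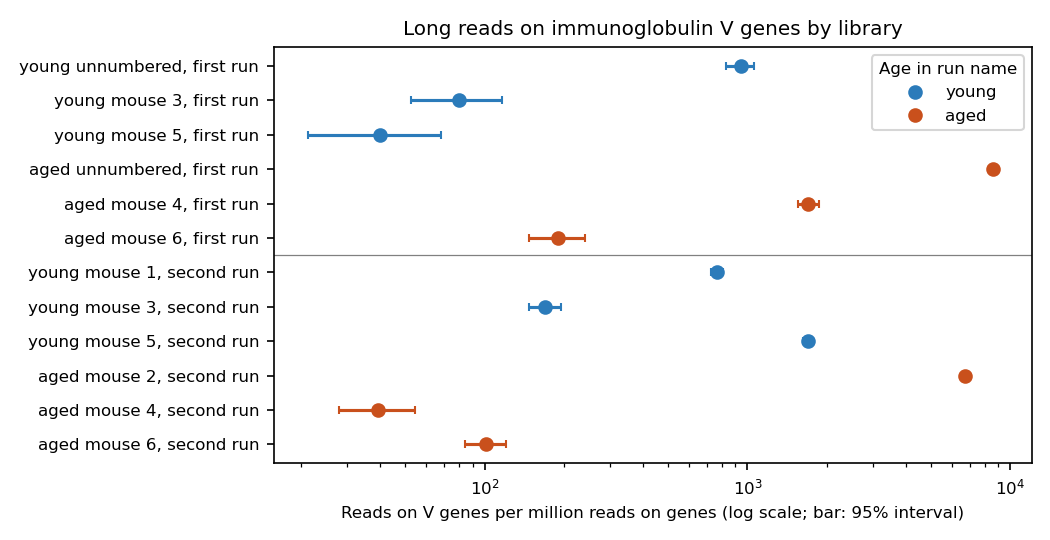
Reads on V genes in CPM (log axis) in each of the 12 libraries, with exact 95% binomial intervals, coloured by the age in the library's name. The unnumbered aged first run (8599 CPM) and the second run named aged mouse 2 (6711 CPM) are highest, and young mouse 5, first run (40.1 CPM) and aged mouse 4, second run (39.5 CPM) are lowest.

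Evenness was described by the effective number of V genes, the exponential of the Shannon entropy, which is the number of equally used genes that would give the same diversity. It was 8.74, 2.28 and 6.16 in the young first runs (unnumbered, mouse 3, mouse 5) and 12.7, 8.64 and 2.80 in the aged (unnumbered, mouse 4, mouse 6). The young first runs averaged 5.73 ± 3.25 (SD, n = 3), and the aged averaged 8.06 ± 4.99 (SD, n = 3). The ages overlapped, and their averages lay closer together than either SD. The least even libraries were those led by Igkv5-43 and Ighv1-55. Young mouse 3 had 5 V genes among 27 V reads and aged mouse 6 had 11 among 68, while the unnumbered aged library had 69 among 2581.

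Depth differs between these values, so each library was also thinned to 13 V reads, the total of the smallest. The expected number of V genes was then 6.18, 3.44 and 7 in the young and 7.22, 6.36 and 3.67 in the aged first runs. At equal depth the libraries led by Igkv5-43 and Ighv1-55 had the fewest, and both ages held a library below 4.

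**Figure D3:**
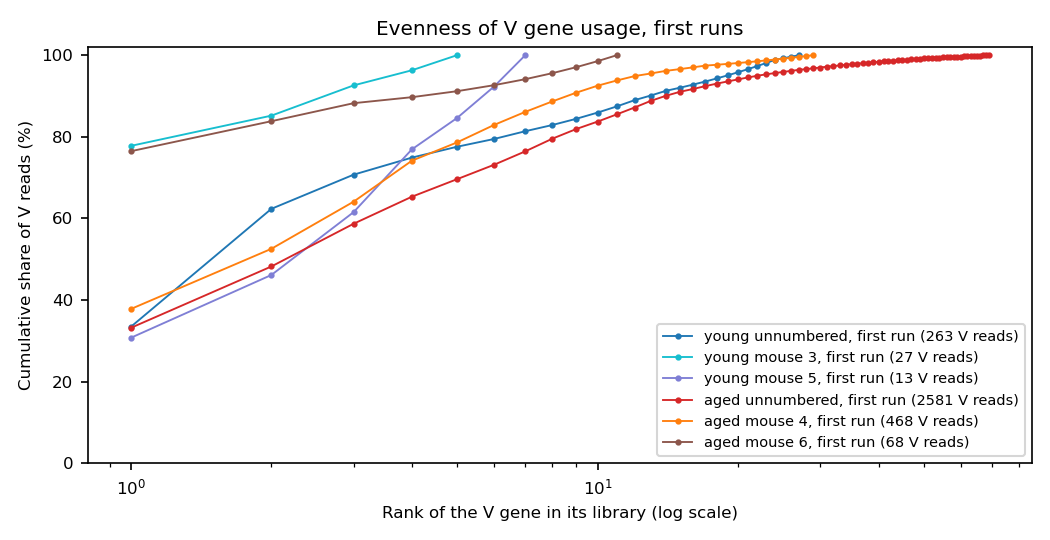
Cumulative share of V reads (%) against the rank of the V gene within its library (log axis) for the 6 first runs. The curves of young mouse 3 and aged mouse 6 start at 77.8% and 76.5% with 1 gene, and the other 4 start between 30.8% and 37.8%.

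Kappa V genes held 15144 of the V reads (80.3%), heavy chain V genes 3706 (19.6%) and lambda V genes 15 (0.0795%). The lambda constant genes held more reads than the lambda V genes (Iglc2 286, Iglc1 40 and Iglc3 2). The lambda share of V reads is therefore not the share of lambda transcripts. The kappa share is limited as well. Gm30211, a gene described below whose added transcripts overlap exons of Igkc and of kappa V genes, held 32208 reads. Igkv3-2, among these V genes, had 0 reads. How far V genes near a constant gene are missing from the locus shares and the evenness values was not tested. The kappa share was 89.4%, 81.5% and 53.8% in the young and 86.7%, 77.6% and 16.2% in the aged first runs. Aged mouse 6 stood apart with 83.8% heavy chain reads (72.9 to 91.6%), of which Ighv1-55 held 52 of 57, and the other 5 held 10.6 to 22.4%. Among second runs it was the library named young mouse 3 that stood apart, with 90.7% heavy chain reads (85.8 to 94.3%), and the other 5 held 12 to 21.1%. The mean heavy chain share was higher in aged first runs (39.8% against 14.8%) and higher in young second runs (42.6% against 15.0%). The single lambda member, Iglv1 (chromosome 16, 19085017 to 19085500, minus strand), led young mouse 5 with 4 of 13 V reads (30.8%, 9.09 to 61.4%). It had 5 reads in the unnumbered aged first run and 0 in the other 4 first runs.

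V pseudogenes, which lack a functional reading frame or signal, were nearly unused. Of 130 in the annotation, 14 had reads, 22 reads in all, which was 0.117% of V reads (0.0731 to 0.177%). Ighv3-2 had 4 reads, all in the second run named aged mouse 2. Igkv2-116 had 3 reads, and Ighv1-14, like Ighv1-86, had 2. Of 218 V genes not annotated as pseudogenes, 122 had reads.

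V usage paired the second runs with first runs of other names. The measure was the overlap of V gene shares, the sum over V genes of the smaller of the shares in 2 libraries, which is 100% for identical usage. The second run named young mouse 1 overlapped by 90.1% with the unnumbered young first run, and its next closest first run reached 52.0%. The second run named aged mouse 2 overlapped by 90.1% with the unnumbered aged first run, with 50.4% for the next. For these mice, V usage went with the age in the names.

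Of the second runs named for mice 3 to 6, 1 of 4 was closest in overlap to the first run of its own name. The second run named young mouse 3 overlapped by 80.9% with aged mouse 6, and by 0.98% with the first run of its own name. The second run named aged mouse 6 overlapped by 86.0% with young mouse 3 and by 0.80% with its own name. The second run named young mouse 5 overlapped by 91.0% with aged mouse 4 and by 23.5% with its own name. For the second run named aged mouse 4, which held 38 V reads, the overlap was 46.0% with its own name and 38.9% with young mouse 5, which held 13. Its own name was also closer by the cosine similarity of V gene counts (0.614 against 0.515). The same held for the overlap over V genes with 10 or more reads (48.5% against 38.4%). The chi-square and the correlation over other genes, given below, were closer to young mouse 5.

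The genes behind these pairs were those described above, Ighv1-55, Igkv5-43, and Igkv2-137 with Ighv1-47. Overlap between different first runs ranged from 1.47% to 50.3% over 15 pairs, with a median of 8.04%. The 80.9 to 91.0% of the 5 closest pairs lay above every pair of first runs, but they were picked as the closest among 36 pairs of a second and a first run. Of these 36, the 30 outside the best pair of each second run by chi-square, a measure given below, overlapped by 0 to 52.0%. The libraries of a crossed pair also had similar total V levels. They were 169.9 CPM against 189.7 CPM for Ighv1-55, 101 CPM against 80.0 CPM for Igkv5-43, and 1703 CPM against 1705 CPM for Igkv2-137. The second run named aged mouse 4 was at 39.5 CPM, against 40.1 CPM in the first run of young mouse 5 and 1705 CPM in the first run of its own name.

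Sampling noise was then considered. Pearson's chi-square per degree of freedom, which is near 1 when counts differ only by sampling, was 0.55 between the second run named young mouse 1 and the unnumbered young first run. It was 2.47 between the second run named aged mouse 2 and the unnumbered aged first run. It was 1.23 between the second run named young mouse 5 and the first run of aged mouse 4, against 12.1 for the first run of the same name. It was 1.30 between the second run named aged mouse 6 and the first run of young mouse 3, against 34.9 for its own name. It was 4.45 between the second run named young mouse 3 and aged mouse 6, against 43.2. For the second run named aged mouse 4 it was 2.87 with young mouse 5 and 13.2 with its own name, the opposite order to the overlap. At the same difference in shares this value rises with the number of reads. The pair with young mouse 5 held 38 and 13 V reads and the pair of its own name 38 and 468, so this order is uncertain. Of the first-run V genes of the unnumbered young library, all 27 were found again in its closest second run. Runs of 1 mouse were never counted as separate replicates.

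Genes other than immunoglobulin genes gave a check that V usage did not enter. Over 11896 such genes, the Spearman correlation of log2(CPM + 1) was highest with young mouse 5 for the second run named aged mouse 4 (0.949, against 0.931 for its own name). For the other 5 second runs it was highest with the same first run as V usage. In this measure 0 of 4 second runs named for mice 3 to 6 were closest to the first run of the same name. The best and next correlations differed by little, 0.931 against 0.930 for young mouse 1, and they are given as a description. Whether names were exchanged in the deposited table, in sequencing or before it was not tested.

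**Figure D4:**
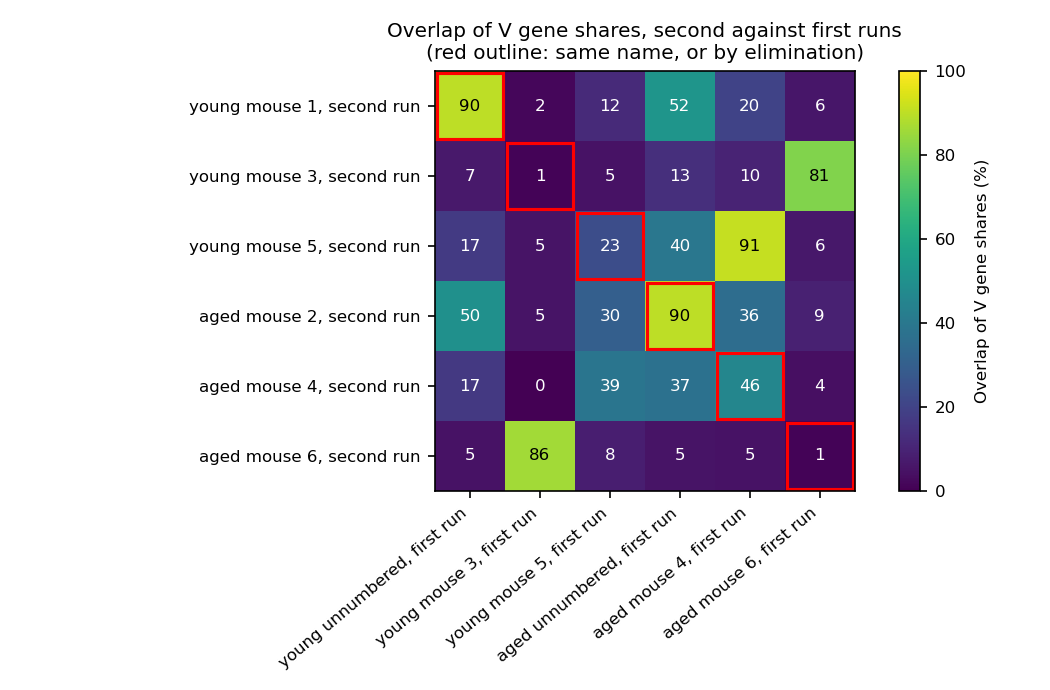
Overlap of V gene shares (%) between each second run (rows) and each first run (columns), with red outlines where the names give the same mouse, or by elimination for the unnumbered runs. Values of 80.9 to 91.0% lie on the outline for mice 1 and 2 and off it for 3 of the 4 second runs named for mice 3 to 6.

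Ages were compared on the first runs, with edgeR's quasi-likelihood test over all genes that passed its filter on low counts. Of the 136 members, 3 passed the filter, and each passed through the libraries in which it was high. Igkv1-117 stood at 78.8, 0 and 6.17 CPM in young (unnumbered, mouse 3, mouse 5) and 899.6, 251 and 2.79 CPM in aged (unnumbered, mouse 4, mouse 6). Its log2 difference, aged minus young, was 3.83 ± 1.11 (SE), with a Benjamini-Hochberg adjusted p of 0.997 from edgeR. Igkv12-44 differed by 3.45 ± 1.499 and Igkv5-43 by 2.16 ± 1.02, both with the same adjusted p. Among first runs each was highest in the unnumbered aged library, and the ages overlapped for all 3.

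No member was called (0 of 3), beside a background of 0% (0 of 5250 genes). At an unadjusted p under 0.05 there were 161 genes, 2 of them members, and 68 genes by DESeq2, which called 0 as well. When every gene with 1 or more read was tested, 19 of 86 members were called, 18 of them higher in aged, against a background of 0.228% (32 of 14054 genes). In that fit the SE of Igkv12-44 was 0.298 where it had been 1.499, for the same reads. Without the unnumbered aged library it called 9 of 53 members, beside 16 of 13716 genes. Igkv12-44 then turned from 3.43 to -1.89 (log2, aged minus young). These 19 calls therefore depended on the filter.

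Leaving out 1 library also moved the calls. Without aged mouse 4, 1 of 4 members tested was called, Ighv1-55, beside 1 of 5575 genes. Ighv1-55 had 4, 0 and 0 reads in the young first runs and 61 and 52 in the aged ones that remained. Without aged mouse 6, 2 of 5 members tested were called, beside 2 of 5389 genes. Igkv2-137 had 1, 0 and 1 young reads and 388 and 177 aged, and Igkv4-55 had 4, 0 and 0 young and 46 and 47 aged. All 3 passed the filter only through the aged libraries in which they were high, once the low aged library was left out, so these calls give no support to a difference between ages. Without any 1 of the young libraries 0 members were called. Without the unnumbered aged library no member was called, and Igkv12-44 and Igkv5-43 were lower in aged, by values of -1.88 ± 1.23 and -0.37 ± 0.98.

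The other genes of the pathway were described from lists of constant region, J segment, recombination and receptor genes. Of the constant region genes, 8 of 11 in the table had reads, 2 passed the filter (Ighm and Igha), and 0 of these 2 were called. Ighm, the constant region of IgM, was at 265, 32.6 and 58.6 CPM in the young first runs and 2655, 364 and 165 CPM in the aged, a log2 difference of 3.17 ± 0.85 (adjusted p = 0.997 from edgeR). Igha differed by 2.84 ± 0.96 with the same adjusted p. The ages overlapped for both. The 12 J segment genes had 0 reads in all libraries, although rearranged transcripts hold a J segment.

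Of the 12 V(D)J recombination genes, 11 had reads and 5 passed the filter, with 0 called. Hmgb2 differed by -0.15 ± 0.25 and Xrcc6, a Ku subunit of end joining, by -0.18 ± 0.27. Dntt, which adds bases at the junctions, differed by -0.32 ± 0.41. Rag1, a recombinase gene, had 0 reads and Rag2 had 12. The recombinase was thus hardly detected at this depth in libraries that did hold V reads. Of the surrogate light chain and receptor genes, Cd79b passed the filter and differed by 0.15 ± 0.36, and Cd79a had 133 reads over 9 libraries. Jchain, the joining chain of secreted IgM and IgA, was at 462, 56.3 and 120.2 CPM in young and 3742, 412 and 114 CPM in aged first runs, the same order of libraries within each age as the V reads but for the 2 lowest young ones.

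Reads were few on the V genes nearest to the constant genes. Among V genes within 200 kb of the constant gene of their locus (Igkc, Ighm, or the nearest of Iglc1, Iglc2 and Iglc3), 5 members had 22 reads, 0.117% of all V reads (0.0731 to 0.177%). The limit of 200 kb was chosen after the values were seen. In the kappa locus, 11 V genes within 200 kb of Igkc held 3 reads, 13 between 200 and 500 kb held 276, and 26 between 500 and 1000 kb held 7592. In the heavy chain locus, 9 V genes between 100 and 200 kb of Ighm held 4 reads and 36 between 500 and 1000 kb held 1119. Igkv3-2, at 27.4 kb from Igkc (chromosome 6, 70698449 to 70699067, plus strand), had 0 reads.

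Igkc itself had 0 reads in all 12 libraries. The neighbouring Gm30211 had 32208, more than all V genes together. The annotation holds 8 transcripts of Gm30211 that TALON added from these reads, and all 8 overlap exons of Igkc and of 1 or more V genes (Igkv3-1, Igkv3-2, Igkv3-5, Igkv3-8, Igkv6-17 or Igkv6-25). Gm30211 was at 1774, 29.6 and 179 CPM in young and 17548, 965 and 86.5 CPM in aged first runs. Added transcripts of Ighm, Ighd and Adam6a likewise overlap exons of Ighv5-4, Ighv5-6, Ighv5-9 or Ighv14-1, which had 0 reads each. In all, 16 V genes shared an exon with another gene, and 3 of them were members (Igkv2-137, Igkv6-25 and Igkv6-17). Reads that fitted several genes made up 5.42 to 11.5% of a library, and how many of them were immunoglobulin reads was not tested.

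The short reads offered a measure the selection did not use. They are unique molecular identifiers (UMIs) of 8436 cells from 6 libraries, numbered at the end of each cell name, and no label ties a number to a mouse. The study's methods describe the short-read libraries as made from the tail end of transcripts. A V exon lies at the opposite end, before the constant region, so V UMIs and full-length reads are unlike measures of V usage. The short reads held 50 V genes, 46 of them members, with 1436 V UMIs in 516 cells. The leading gene was Iglv1 with 571 UMIs, followed by Igkv3-2 with 130, Iglv3 with 107, Igkv12-44 with 79 and Igkv14-126 with 67. Of these, Igkv3-2 and Iglv3 had 0 long reads and Iglv1 had 15. Lambda V genes together held 47.5% of the V UMIs, against 0.0795% of the long V reads. V genes within 200 kb of their constant gene held 820 of the V UMIs (57.1%, 54.5 to 59.7%), against 0.117% of the long V reads. Igkv12-44, the leading gene in long reads, ranked 4 here, and Igkv2-137, the next in long reads, had 9 UMIs and ranked 24.

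**Figure D5:**
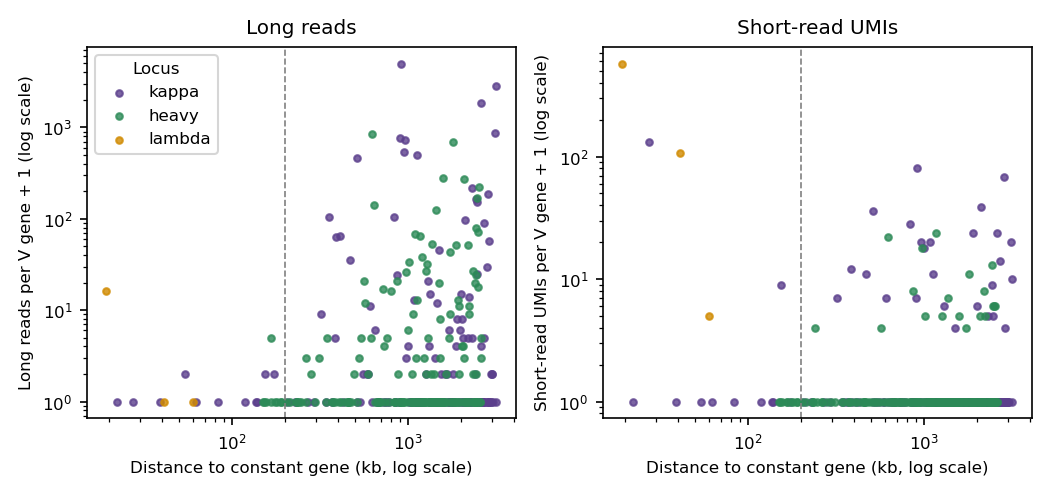
Long reads (left) and short-read UMIs (right) per V gene plus 1 (log axis) against the distance to the constant gene of the locus (kb, log axis), for the 348 annotated V genes. Left of the dashed line at 200 kb, long reads number 22 in all, and UMIs number 820, led by Iglv1 (571) and Igkv3-2 (130).

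Short-read V UMIs were concentrated in a library. Library numbers 1 to 6 held 142, 1197, 4, 84, 2 and 7 V UMIs, and Igkc stood at 55113, 415884, 60, 108789, 149 and 2909 UMIs in the same order. Number 2 held 45 of the 50 V genes, and Igkv12-44 was listed there alone. Ighv1-47 and Igkv2-109 were listed only in number 4, with 4 and 8 UMIs. Of the 90556 pairs of a gene and a library with a UMI, 2613 had it in only 1 or 2 cells, so a V gene listed at 0 in a library may have been filtered out there. The table shared 42 cell barcodes between libraries.

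V UMIs were most frequent in cells with B-lineage genes. Within library number 2, 131 of 218 cells with a UMI of 4 or more of the 18 B and plasma cell markers in the table had a V UMI (60.1%, 53.3 to 66.6%), at a median of 10036 UMIs per cell. Of its 162 cells with none of the markers, 21 had one (12.96%, 8.21 to 19.1%), at a median of 3367. In the other 5 libraries the shares were 36.8% (32 of 87 cells, 26.7 to 47.8%) and 0.682% (17 of 2493 cells, 0.398 to 1.09%). With every cell thinned to 3000 UMIs and shallower cells left out, the expected shares in library number 2 were 42.3% of 214 cells (4 left out) and 8.96% of 98 cells (64 left out). Cells without markers lack the abundant plasma cell transcripts by choice, so their share may lie below the background from free RNA. In cells with 1 to 3 markers the share was 22.3% in library number 2 (20.1 to 24.7%) and 0.552% in the others (0.350 to 0.827%), the latter no higher than in cells with none.

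No doublet caller was run on these cells, and whether V-rich cells were doublets was not tested. All 79 cells with 5 or more V UMIs had 4 or more markers. In these, the leading V gene held a median of 62.5% of the cell's V UMIs and was Iglv1 in 55 cells. Of the 79, 62 came from library number 2.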

How the data were processed

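Long reads were aligned by the authors with minimap2 to GRCm38 and counted per gene with HTSeq over Gencode M24 joined with transcripts added by TALON; the deposited values are raw counts of reads per gene and library. The counting mode and strand setting are not given in the sources used here. Rows that name no gene (47.4 to 52.4% of a library) stayed out of library sizes. Short-read counts are UMIs per gene and cell, deposited by the authors after Cell Ranger 3.0.2 and Seurat 3. No column of per-sample values was left out (0).

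CPM were scaled to 1e6 reads on genes per library. Ages were compared over all genes with edgeR 4.0.16 (filterByExpr, TMM, quasi-likelihood test, Benjamini-Hochberg, adjusted p under 0.05) in R 4.3.3, on 3 young and 3 aged first runs, and DESeq2 1.42.0 was an alternative. The SE of a log2 difference was derived from the F statistic. In counts simulated for that comparison over 5203 genes, 192 of 200 changed genes were found (100 of 100 changed 8-fold and 92 of 100 changed 4-fold), with 9 false calls. The simulation gave every gene the same dispersion and drew the changed genes from those with higher counts. It therefore does not give the power to find changes in V genes. Intervals of shares are exact (Clopper-Pearson, 95%). An ID with several gene entries kept its shortest. Named genes are the 10 members with most reads, the 3 leading per locus, the leader of each library, called members, the 3 leading pseudogenes, and up to 3 genes per pathway list; others were named after their values were seen. Of the B cell markers, 1 is not reported here. Alternatives were second runs alone, runs summed as named, DESeq2, no filter, other library sizes, and each library left out. Members, lists and tests were chosen with earlier results of these data known.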

Additional observations from a re-analysis of the deposited data

Results flagged for a closer look

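Signals outside the V gene counts stood above 0 where the counts were 0. Gm30211, which is not a V gene by name, held 32208 long reads. Igkv3-2, Iglv3, Iglv2 and Ighv5-9 had no long read and 130, 107, 4 and 3 short-read UMIs. With 3 libraries per age and run, no library was tested as an outlier of its group.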

How the results depend on the processing

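The count of V genes called between ages stayed at 0 with DESeq2 (which gave Igkv12-44 no p-value) and with immunoglobulin genes left out of library sizes. It was also 0 in second runs alone and with runs summed as named. Which runs carry the right names was not tested, so the fits on first runs may mix the ages as well as these. A count of 0 shared by them says nothing about stability. It was 19 when every gene with 1 or more read was tested, 9 when the unnumbered aged first run was also left out (chosen after seeing the data), and 0 to 2 over the fits that leave out 1 library. The young mean of V reads was 879 CPM in second runs alone, and leaving out 1 library gave 60.1 to 511 CPM in young and 947 to 5152 CPM in aged. The young mean heavy chain share was 42.6% in second runs and 39.5% with runs summed, and the aged mean lambda share 0.892% in second runs. Iglv1 held 39.8% of short-read V UMIs over all cells, and 76.1%, 35.3% and 45.2% in library numbers 1, 2 and 4. Alternatives chosen after seeing the data gave 1.63% of V reads within 500 kb of the constant gene, 0.263% within 200 kb in first runs alone, and 77.8% of V UMIs within 200 kb without library number 2. Pooled shares of single genes and families, and shares of cells by marker class, moved beyond their counting intervals under every alternative added for them, as given above. In all, 47 of 79 alternatives stayed within the spread of the libraries, the interval, or the same count. For group means that spread was 1 SD of 3 libraries. It exceeded the mean for V reads (354 CPM with SD 509.8 in young, 3498 CPM with SD 4482 in aged). An aged mean of 947 CPM thus counted as within it. The 47 also include second runs alone and runs summed as named, so this tally is no measure of stability. The causes of the moves were not tested. No paired analysis was possible because the ages share no mouse number. Libraries with 13 to 68 V reads limit every statement about the least used genes.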
